A study of Arabidopsis thaliana with 24 samples.

Results

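Transcript counts of 9 WRKY genes were followed in 21-day-old Arabidopsis thaliana plants of 6 genotypes. The genes are WRKY33, WRKY40, WRKY18, WRKY60, WRKY53, WRKY46, WRKY6, WRKY22 and WRKY11. They were taken by locus number from a list of defence and stress WRKY genes, and all 9 are among the 37184 loci counted in each of the 24 libraries. All 9 also passed the filter on low counts, which left 13592 genes to be tested.

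WRKY proteins are plant transcription factors that hold a conserved DNA-binding domain with a zinc finger. They bind the W box, whose core is TTGAC and whose full form is TTGACC or TTGACT. Many WRKY genes carry W boxes in their own promoters, so that the family is known to act on its own members, and many are switched on within minutes to hours of contact with a pathogen, of wounding or of osmotic stress. In leaves some of them activate defence genes, others hold defence back, and several also act in leaf ageing.

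DXO1 is the Arabidopsis member of the DXO proteins, which remove abnormal caps and other groups from RNA 5' ends. The genotypes were 35S::DXO1(ΔN194/E394A/D396A) dxo1-2, 35S::DXO1(ΔN194) dxo1-2, 35S::DXO1(E394A/D396A) dxo1-2, 35S::DXO1(wt) dxo1-2, the mutant dxo1-2 and the wild type Col-0, with 4 libraries each. They are called the truncated substituted, truncated active, full-length substituted and full-length active lines, dxo1-2 and Col-0. ΔN194 stands for a protein without its N-terminal stretch, and E394A and D396A are the substitutions that take away catalysis. All 4 lines carry the dxo1-2 mutation and drive their transgene from the constitutive viral 35S promoter. No independent lines are labelled within a construct, so the effect of a construct and that of its line cannot be told apart. Plants grew on soil in long days, and the labels give no batch and do not say whether the 4 libraries of a genotype came from separate pots or pools. The p-values therefore measure the spread between these libraries, which may be partly technical.

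Levels are given as CPM, that is counts scaled to a common library total after TMM adjustment for composition. Because reads come from the 3' ends of transcripts, a count stands for a transcript end. A gene was called at an edgeR adjusted p under 0.05, with adjustment over all 13592 genes. Total counts ran from 1270033 to 3490594 per library. DXO1 itself (AT4G17620) averaged, over 4 libraries with the SD, 5.14 ± 1.71 CPM in the truncated substituted line, 4.45 ± 1.77 CPM with the truncated active protein, 18.4 ± 2.43 CPM with the full-length substituted one, 12.1 ± 1.24 CPM with the full-length active one, 3.36 ± 0.645 CPM in dxo1-2 and 15.6 ± 2.97 CPM in Col-0. Its count fell in dxo1-2 relative to Col-0 (log2 change -2.23, edgeR adjusted p 5.7e-06), on 5 to 8 counts per dxo1-2 library and 21 to 28 per Col-0 library. Its reads were fewer in the truncated than in the full-length line in the substituted and the active pair (log2 change -1.81 and -1.49, edgeR adjusted p 1.8e-05 and 2.1e-04), and every comparison across the truncation carries that difference too. Which part of the gene those reads come from in each transgene is not stated. Root markers summed to at most 1.87 CPM and flower markers to at most 3.78 CPM in every library, and the root hair markers EXPA7 and COBL9 were at 0 throughout. The summed level of 5 green leaf markers ran from 41000 to 66600 CPM. By these markers the libraries held green shoot material with hardly any root or flower transcript.

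Promoter sequences show how the W box is spread over the list. The 250 bases before the annotated start of each gene were read from the RefSeq assembly TAIR10.1, and the core TTGAC was searched on both strands, so that GTCAA on the gene's own strand also counts. It was present in 6 of the 9 promoters, against 44.9% of 27443 nuclear protein-coding promoters of the same length. At least 2 cores were present in 3 of the 9, against 14.1% of all promoters, and at least 1 full form TTGACC or TTGACT in the same 3, against 28.4%. Those 3 are WRKY33 (chr2:16107985-16108234, plus strand), WRKY53 (chr4:12393983-12394232, minus strand) and WRKY11 (chr4:15291935-15292184, minus strand). They are printed here with WRKY18 (chr4:15382527-15382776, plus strand), whose window holds no core. Capitals mark each core, and each sequence reads 5' to 3' on the strand of its gene.
WRKY33: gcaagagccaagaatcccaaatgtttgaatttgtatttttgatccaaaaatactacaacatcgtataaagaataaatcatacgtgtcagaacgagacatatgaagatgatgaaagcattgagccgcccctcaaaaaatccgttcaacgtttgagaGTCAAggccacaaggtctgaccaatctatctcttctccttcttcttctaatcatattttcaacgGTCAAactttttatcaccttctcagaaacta
WRKY53: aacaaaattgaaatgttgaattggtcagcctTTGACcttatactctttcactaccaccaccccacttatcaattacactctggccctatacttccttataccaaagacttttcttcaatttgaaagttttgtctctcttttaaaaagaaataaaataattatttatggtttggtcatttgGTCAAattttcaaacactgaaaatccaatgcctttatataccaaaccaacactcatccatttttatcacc
WRKY11: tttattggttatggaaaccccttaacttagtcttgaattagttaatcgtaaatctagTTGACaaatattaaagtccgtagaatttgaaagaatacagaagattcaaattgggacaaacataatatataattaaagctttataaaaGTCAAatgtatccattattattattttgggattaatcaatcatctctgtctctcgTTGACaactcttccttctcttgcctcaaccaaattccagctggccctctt
WRKY18: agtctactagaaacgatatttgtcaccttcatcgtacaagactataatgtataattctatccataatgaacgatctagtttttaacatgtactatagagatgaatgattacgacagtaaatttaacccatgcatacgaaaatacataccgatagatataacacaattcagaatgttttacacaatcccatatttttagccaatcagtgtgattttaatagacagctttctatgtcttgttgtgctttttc
The windows of WRKY40, WRKY46 and WRKY6 held 1 core each, and those of WRKY60 and WRKY22 held 0. A match is a string of letters in a short window and not a measured binding site, and its relation to the transcript levels was not tested.

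In dxo1-2, 7 of the 9 WRKY genes were higher than in Col-0 and 0 were lower. They were WRKY40, WRKY18, WRKY60, WRKY53, WRKY46, WRKY22 and WRKY11, and in each of them the 4 dxo1-2 libraries all lay above the 4 Col-0 libraries. WRKY46 had the largest step of the 9, while WRKY33 and WRKY6 were not called. Of all genes tested, 22.6% were called, 14.7% higher in dxo1-2 and 7.93% lower, and 26.1% had no overlap between the genotypes. The median log2 fold change of the 9 genes was 1.16, and that of all genes tested was 0.02. No member was lower at an unadjusted p under 0.05 either, and DESeq2 called the same numbers, 7 higher and 0 lower. In libraries of mixed cell types, more transcript per cell and more cells of a type that makes it cannot be told apart for any of these genes.

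WRKY53 and WRKY46 are group III factors with a single WRKY domain. WRKY46 (AT2G46400, chr2:19043411-19044955) takes part in basal defence and in responses to drought. It had 49.1, 58.6, 52.4 and 35.5 CPM in the dxo1-2 libraries, against 2.84, 6.05, 7.49 and 3.58 CPM in Col-0. The lowest dxo1-2 library was several times above the highest Col-0 library, and the log2 fold change was 3.34 (SE 0.38, edgeR adjusted p 2.8e-07). WRKY53 (AT4G23810, chr4:12392370-12393982), a regulator of leaf ageing and defence, had 117, 120.0, 115 and 89.6 CPM in dxo1-2, against 41.1, 61.3, 45.7 and 53.8 CPM in Col-0. Again the genotypes did not overlap, at a log2 change of 1.14 (SE 0.25, edgeR adjusted p 0.00126). The 3' part of WRKY53 overlaps the antisense gene 3xHMG-box2 (AT4G23800) by 341 bases. Whether counting used the strand is not given in the sources used here, but that neighbour had at most 3.27 CPM in any library.

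WRKY40, WRKY18 and WRKY60 form group IIa, whose proteins bind each other and hold back defence and abscisic acid responses in part redundantly. WRKY40 (AT1G80840, chr1:30383561-30385499) had 66.8, 44.6, 58.9 and 38.0 CPM in dxo1-2, against 16.1, 16.6, 19.1 and 14.3 CPM in Col-0. All dxo1-2 values were well above a tight Col-0 group, with a log2 change of 1.68 (SE 0.32, edgeR adjusted p 2.9e-04). WRKY18 (AT4G31800, chr4:15382777-15385100) had 60.8, 56.6, 81.9 and 70.2 CPM in dxo1-2, against 32.2, 53.7, 35.4 and 32.9 CPM in Col-0. Here the genotypes nearly touched, since Col-0 replicate 2 lay close to the lowest dxo1-2 library. The log2 fold change was 0.82 (SE 0.24, edgeR adjusted p 0.0157), and the call was lost without Col-0 replicate 1 (0.0601), Col-0 replicate 4 (0.0529) or dxo1-2 replicate 3 (edgeR adjusted p 0.0674). WRKY60 (AT2G25000, chr2:10629662-10631413) was scarce, at 7.68, 5.99, 3.68 and 5.07 CPM in dxo1-2 and 0.473, 2.27, 2.73 and 1.19 CPM in Col-0. These values stand on 6 to 23 counts per dxo1-2 library and 1 to 4 per Col-0 library. Its log2 change of 1.83 (SE 0.57, edgeR adjusted p 0.0201) was no longer called without Col-0 replicate 1 (1.46, 0.094), Col-0 replicate 4 (0.0583) or dxo1-2 replicate 1 (edgeR adjusted p 0.0694). WRKY40 overlaps its antisense neighbour AT1G80850 by 51 bases. That neighbour was also higher in dxo1-2, with 15.0 ± 1.03 CPM against 7.68 ± 2.78 CPM in Col-0 (SD, n = 4) and an edgeR adjusted p of 0.0149, and its part in the WRKY40 counts was not tested.

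WRKY33 and WRKY22 are linked to mitogen-activated protein kinases. WRKY33 (AT2G38470, chr2:16108235-16110766) is phosphorylated by MPK3 and MPK6 and drives the synthesis of camalexin, an antimicrobial compound, and of ethylene. It had 89.2, 29.3, 40.5 and 27.9 CPM in dxo1-2, against 16.6, 28.7, 26.6 and 30.5 CPM in Col-0. A single dxo1-2 library was far above the rest and the genotypes overlapped, so that the log2 change of 0.92 (SE 0.36) did not pass (edgeR adjusted p 0.0617). It passed at 1.08 when dxo1-2 replicate 2 (0.0407) or 4 (edgeR adjusted p 0.0362) was left out. The call was also made with no filter on low counts (0.0414), with the length trend removed (0.0227), with the main axis of spread within genotypes as a covariate (0.00225) and in a fit of only these genotypes (edgeR adjusted p 0.0382), at log2 changes of 0.85 to 0.94. WRKY33 shares 272 bases with an antisense long non-coding RNA, AT2G08965, that had 0 counts in every library, and 26 bases with the antisense gene AT2G38480. AT2G38480 averaged 16.9 ± 3.5 CPM in dxo1-2 and 13.9 ± 4.36 CPM in Col-0 (SD, n = 4). In the full-length substituted line it averaged 20.7 CPM and WRKY33 17.6 CPM. The part of AT2G38480 in the WRKY33 counts was not tested. WRKY22 (AT4G01250, chr4:522530-524249), known from the response to bacterial flagellin, had 22.7, 24.6, 24.4 and 14.4 CPM in dxo1-2, against 8.04, 6.81, 9.54 and 14.3 CPM in Col-0. The genotypes all but met in replicate 4 of each, and the other 3 libraries of each were well apart. The log2 fold change was 1.16 (SE 0.25, edgeR adjusted p 0.00122).

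WRKY11 (AT4G31550, chr4:15289788-15291934) is a group IId factor that restrains basal resistance together with WRKY17. It had 32.1, 24.6, 25.3 and 23.7 CPM in dxo1-2, against 12.3, 10.6, 11.6 and 10.8 CPM in Col-0. Both groups were tight and far apart, with a log2 change of 1.23 (SE 0.32, edgeR adjusted p 0.00497). WRKY6 (AT1G62300, chr1:23016569-23019494), a group IIb factor of leaf ageing and phosphate responses, had 28.1, 26.0, 29.0 and 19.4 CPM in dxo1-2, against 12.3, 19.7, 18.4 and 28.7 CPM in Col-0. Its values overlapped, and its log2 fold change was 0.40 (SE 0.29, edgeR adjusted p 0.353).

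**Figure D1:**
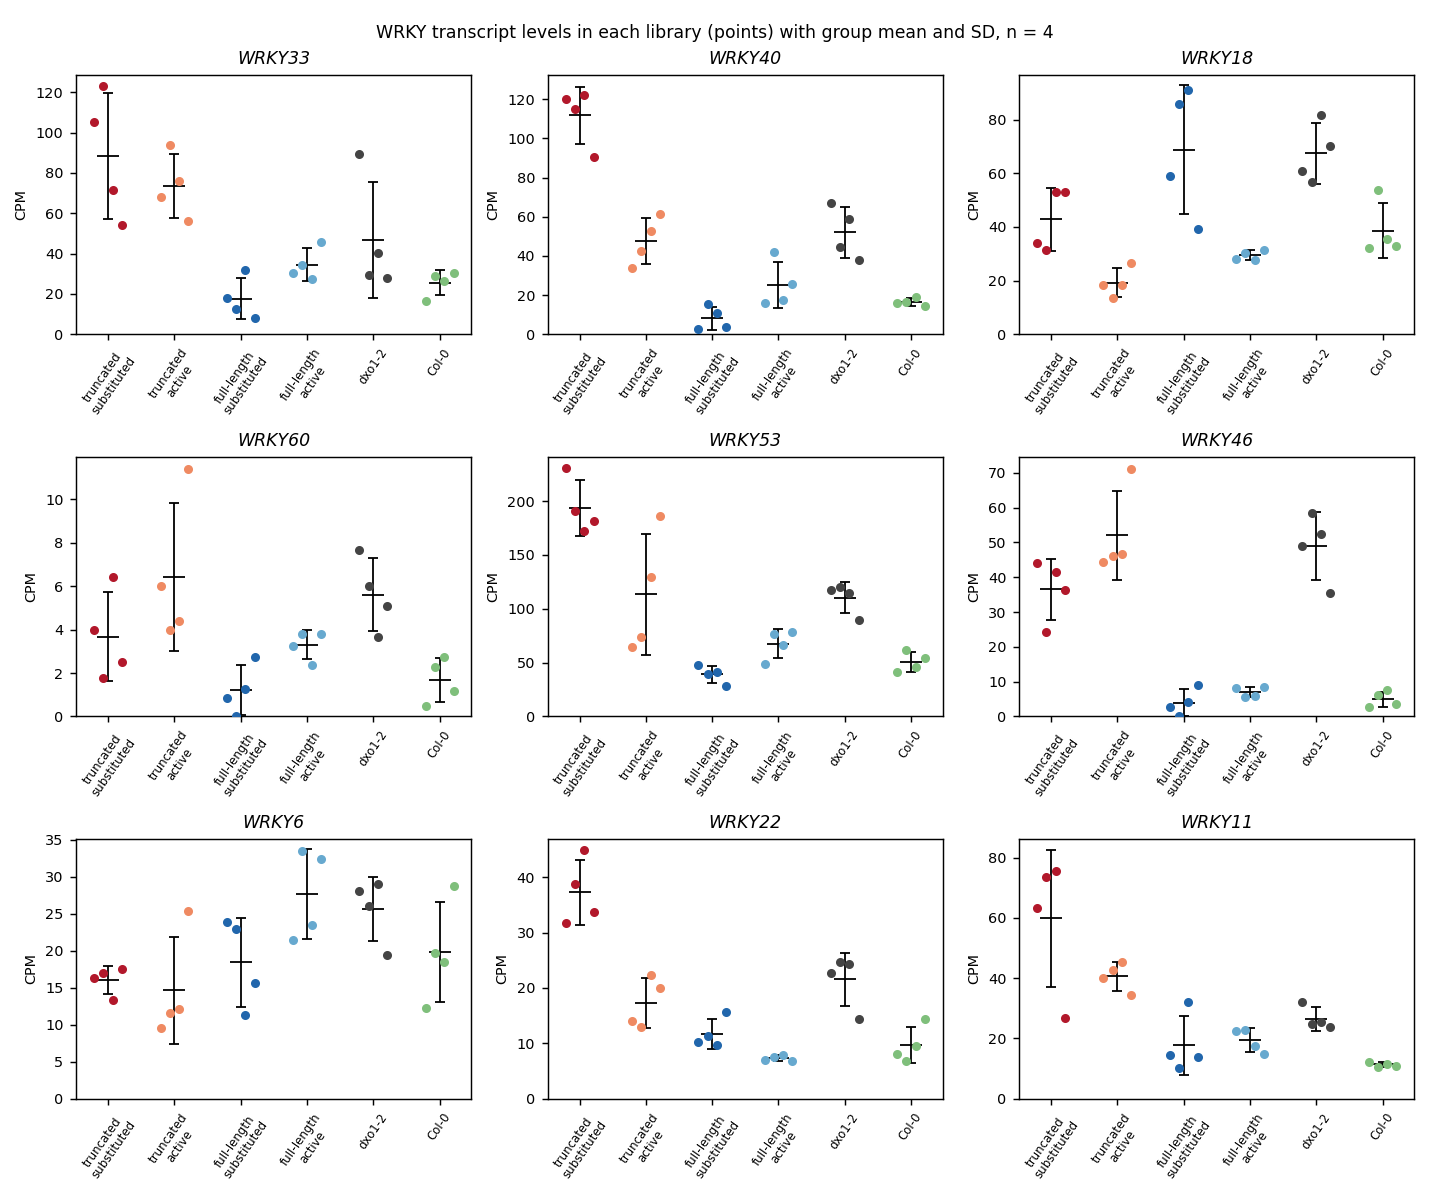
Level of each WRKY gene in CPM (vertical axis, linear, from 0) in every library, with the genotypes along the horizontal axis. Points are libraries, the long bar is the mean and the error bar is the SD (n = 4). For WRKY46 the truncated lines and dxo1-2 lie at 24.4 CPM or more, while the full-length lines and Col-0 lie at 9.16 CPM or less.

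The leaf ageing marker SAG13 was also higher in dxo1-2. It had 50.1, 75.3, 17.9 and 6.76 CPM in the dxo1-2 libraries, against 1.89, 2.27, 2.73 and 1.19 CPM in Col-0. The summed level of 5 ageing markers was 47.5 to 83.0 CPM in the truncated substituted line, 45.4 to 238 CPM in the truncated active line, 170.0 to 234 CPM in the full-length substituted line, 77.3 to 102 CPM in the full-length active line, 72.7 to 172 CPM in dxo1-2 and 48.4 to 55.5 CPM in Col-0. SAG13 was the only one of the 4 tested that was called in dxo1-2 over Col-0 (edgeR adjusted p 8.0e-04), where 14.7% of all genes were called higher. WRKY33, WRKY40, WRKY60 and WRKY11 peaked in dxo1-2 replicate 1, and 7 of the 9 genes were lowest in replicate 4, which also had the least SAG13. Of the 9 genes, 6 were called without dxo1-2 replicate 1 and 8 without replicate 4. Among 5 green leaf markers LHCA1 and RBCS1A were lower in dxo1-2 (edgeR adjusted p 2.5e-05 and 0.0094), where 7.93% of all genes were called lower. The part of leaf age and leaf share in the WRKY levels was not tested.

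In the line with full-length active DXO1, 5 of the 9 WRKY genes were lower than in dxo1-2 and 0 were higher. They were WRKY46, WRKY22, WRKY18, WRKY40 and WRKY53. Of all genes tested, 30.6% were called, 18.5% lower in this line than in dxo1-2 and 12.1% higher, and 34.0% had no overlap, as did 5 of the 9. The median log2 fold change of the 9 genes was -0.77, against 0.04 for all genes. At an unadjusted p under 0.05 and in DESeq2 the member counts were likewise 5 lower and 0 higher. Leaf markers moved in the same comparison. SAG13 averaged 2.59 ± 1.90 CPM in the line and 37.5 ± 31.2 CPM in dxo1-2 (SD, n = 4; -3.75, edgeR adjusted p 4.8e-04), and ORE1, a regulator of leaf ageing, 9.75 ± 1.92 CPM in the line and 3.40 ± 2.27 CPM in dxo1-2 (1.65, edgeR adjusted p 0.0246). The ORE1 call was lost without dxo1-2 replicate 1, 2 or 3 or line replicate 2 (0.0633 to 0.0881). Of 5 green leaf markers LHCA1 was higher by 0.51 and LHCB1.1 lower, at -0.70 (edgeR adjusted p 0.00576 and 9.0e-04), and the part of these shifts in the WRKY levels was not tested. All comparisons against dxo1-2 use the same 4 dxo1-2 libraries, so the folds of different lines are not independent of each other or of those of dxo1-2 over Col-0.

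WRKY46 had 8.13, 5.70, 5.80 and 8.40 CPM in the full-length active line, against 49.1, 58.6, 52.4 and 35.5 CPM in dxo1-2. The line stayed far below every dxo1-2 library, with a log2 change of -2.82 (SE 0.34, edgeR adjusted p 3.6e-07). WRKY22 had 6.91, 7.60, 7.85 and 6.72 CPM in the line, less than any dxo1-2 library, and its log2 fold change was -1.57 (SE 0.25, edgeR adjusted p 2.0e-05). WRKY18 was equally even, at 28.0, 30.4, 27.6 and 31.5 CPM, with a log2 change of -1.19 (SE 0.24, edgeR adjusted p 4.0e-04). WRKY40 varied more, at 15.9, 41.8, 17.4 and 25.6 CPM. Its library 2 reached into the dxo1-2 range, and the log2 fold change was -1.05 (SE 0.29, edgeR adjusted p 0.00806). WRKY53 had 48.8, 76.8, 66.5 and 78.6 CPM, a log2 change of -0.71 (SE 0.24, edgeR adjusted p 0.0273) that was lost without dxo1-2 replicate 2 (0.0682) or 3 (0.0594), or full-length active replicate 1 (0.104) or 3 (edgeR adjusted p 0.0537). WRKY33, WRKY60 and WRKY11 had log2 fold changes of -0.48, -0.77 and -0.46, and WRKY6 one of 0.10, none of them called.

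With full-length DXO1 that carried the catalytic substitutions, 6 of the 9 genes were lower than in dxo1-2, and WRKY18 was not among them. They were WRKY46, WRKY40, WRKY60, WRKY53, WRKY33 and WRKY22. In this comparison 25.5% of all genes tested were called, 15.1% lower and 10.4% higher, and 21.3% had no overlap, as did 4 of the 9. The median log2 fold change of the 9 genes was -1.37, against 0.03 for all genes, and no member was called higher by edgeR or DESeq2 or had an unadjusted p under 0.05 in that direction. The ageing markers went opposite ways here. SEN4 averaged 190.0 ± 24.5 CPM in the line and 56.8 ± 15.7 CPM in dxo1-2 (SD, n = 4; 1.75, edgeR adjusted p 2.8e-05), while SAG13 averaged 2.56 ± 1.72 CPM in the line and 37.5 ± 31.2 CPM in dxo1-2 (-3.92, edgeR adjusted p 0.00135). NYE1 was lower too (-0.87, edgeR adjusted p 0.0355), a call lost by DESeq2 (0.0675), with no filter, with only these genotypes and in 5 of 8 fits that left out 1 library. SAG12 was at 0 in this line and also in both truncated lines. LHCA1 was higher by 0.70 and LHCB1.1 lower, at -0.56 (edgeR adjusted p 3.3e-04 and 0.00763), and the part of these shifts in the WRKY levels was not tested.

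WRKY40 had 2.56, 15.2, 10.9 and 3.66 CPM with full-length substituted DXO1, from 3 to 26 counts per library, against 66.8, 44.6, 58.9 and 38.0 CPM in dxo1-2. Each value was below every dxo1-2 library, and the log2 fold change was -2.59 (SE 0.35, edgeR adjusted p 3.0e-06). WRKY18, its group IIa partner, had 58.9, 85.7, 91.0 and 39.4 CPM in the same libraries, against 60.8, 56.6, 81.9 and 70.2 CPM in dxo1-2. The line straddled the mutant, with a log2 change of 0.05 (SE 0.24, edgeR adjusted p 0.907). WRKY46 had 2.56, 0, 4.18 and 9.16 CPM, from 0 to 10 counts per library, and its log2 fold change was -3.70 (SE 0.40, edgeR adjusted p 1.1e-07). WRKY53 had 47.8, 39.4, 40.9 and 28.4 CPM and a log2 change of -1.49 (SE 0.26, edgeR adjusted p 7.7e-05). For WRKY60 the 0 to 3 counts per library gave a log2 change of -2.27 (SE 0.61, edgeR adjusted p 0.00669). WRKY33 had 17.9, 12.7, 31.7 and 8.25 CPM, and its log2 change of -1.37 (SE 0.37, edgeR adjusted p 0.00642) shrank to -0.82 and was no longer called without dxo1-2 replicate 1, its highest library (edgeR adjusted p 0.0774), nor in a fit of only these genotypes (-1.34, edgeR adjusted p 0.0546). WRKY22 changed by -0.92 (SE 0.25, edgeR adjusted p 0.00785), with 1 library reaching into the dxo1-2 range. WRKY11 was called lower, by -1.07, without line replicate 3 (edgeR adjusted p 0.00968), and WRKY6 had -0.52 with no call (edgeR adjusted p 0.204).

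With the truncated proteins few of the 9 genes were called different from dxo1-2. DXO1 reads in these lines overlapped those of dxo1-2, which had 2.67 to 4.23 CPM. They ran from 3.12 to 7.04 CPM in the truncated substituted and from 1.98 to 5.99 CPM in the truncated active line. The part of that low DXO1 level in the likeness to dxo1-2 was not tested. In the truncated active line 1 gene was lower than in dxo1-2, and it was WRKY18, with 18.5, 13.6, 18.4 and 26.5 CPM against 60.8, 56.6, 81.9 and 70.2 CPM in dxo1-2. The line lay far below the mutant in every library, and the log2 fold change was -1.83 (SE 0.25, edgeR adjusted p 8.8e-05). Of all genes tested 3.03% were called here, 2.32% lower and 0.706% higher, and 7.61% had no overlap, against 2 of the 9 members. The median log2 fold changes were 0.03 for the 9 genes and 0.02 for all genes. The other 8 members had log2 fold changes from -0.86 for WRKY6 to 0.62 for WRKY33, and 0 were called higher by edgeR or DESeq2, with 1, WRKY11, at an unadjusted p under 0.05. Without dxo1-2 replicate 1 WRKY33 was called higher (1.16, edgeR adjusted p 0.0305), and without truncated active replicate 4 WRKY6 was called lower (-1.20, edgeR adjusted p 0.0083).

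In the truncated substituted line 1 gene, WRKY11, was higher than in dxo1-2 and 0 were lower, where 0.795% of all genes were called, 0.324% higher and 0.471% lower. WRKY11 had 63.3, 73.5, 75.6 and 26.8 CPM, against 32.1, 24.6, 25.3 and 23.7 CPM in dxo1-2. In 3 of the 4 libraries it was above every dxo1-2 library, while replicate 4 fell within the mutant's range. The log2 fold change was 1.17 (SE 0.27, edgeR adjusted p 0.0358). The call was lost when dxo1-2 replicate 2 (0.123), 3 (0.132) or 4 (0.0884), or truncated substituted replicate 1 (0.0935), 2 (0.152) or 3 (edgeR adjusted p 0.149) was left out, and in a fit of only these genotypes (edgeR adjusted p 0.118). WRKY40, WRKY53 and WRKY22 lay above every dxo1-2 library without being called, with log2 changes of 1.08, 0.81 and 0.77 (edgeR adjusted p 0.0726, 0.159 and 0.143). WRKY33 was not called (0.89, edgeR adjusted p 0.362), but it was called higher without dxo1-2 replicate 1 (1.44, edgeR adjusted p 0.029). WRKY40 had 120.0, 115, 122 and 90.5 CPM in the line, and whether it was called turned on the setting. It was called by DESeq2 (adjusted p 0.0166) and by edgeR with no filter (0.0231), with the length trend removed (0.0491), with the covariate (4.5e-04) and with only these genotypes (edgeR adjusted p 0.035). WRKY18 and WRKY6 lay below every dxo1-2 library, also without a call (-0.67 and -0.69, edgeR adjusted p 0.324 and 0.491). In all, 5 of the 9 had no overlap with dxo1-2, where 4.92% of all genes had none. At an unadjusted p under 0.05, 5 members were higher and 2 lower, and the median log2 fold change was 0.77 for the 9 genes and 0.02 for all genes.

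**Figure D2:**
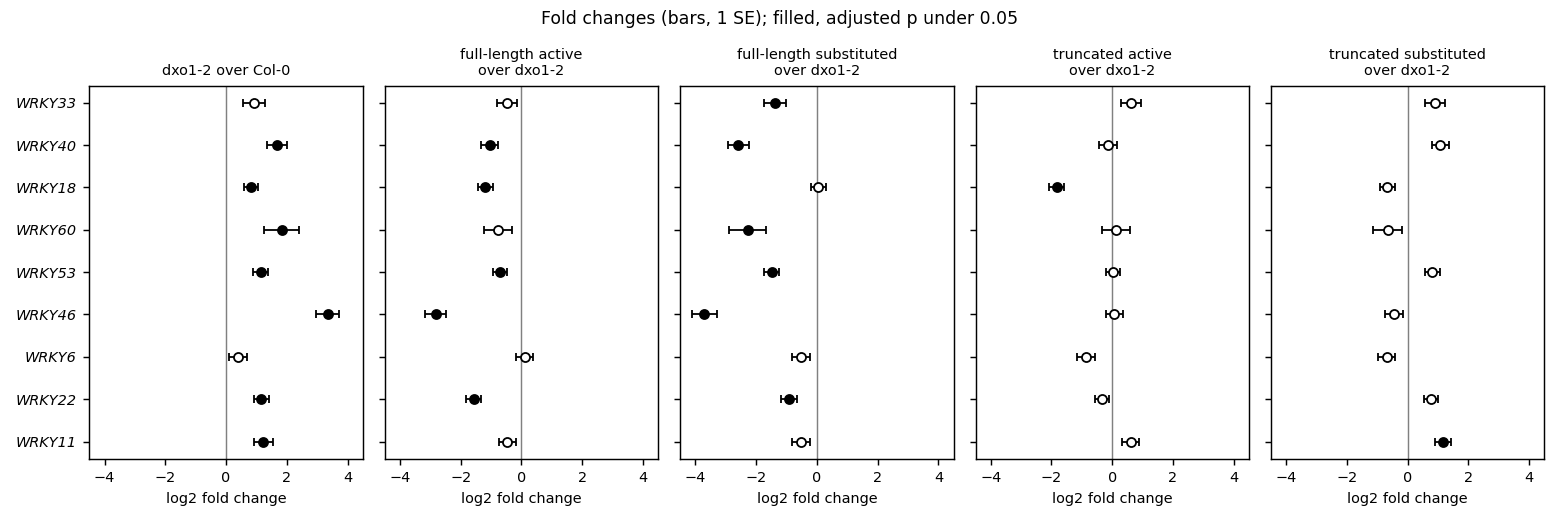
Log2 fold change of each WRKY gene (horizontal axis) in 5 comparisons, with bars of 1 SE and filled points for an edgeR adjusted p under 0.05. The full-length lines lie mostly left of 0 against dxo1-2, at -2.82 and -3.70 for WRKY46, and both truncated lines do so for WRKY18 and WRKY6.

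Set against Col-0, the full-length lines had 0 and 1 members called and the truncated lines had 8 and 6. In the full-length active line 0 members were called, by edgeR or DESeq2, where 1.03% of all genes were called, 0.552% higher and 0.478% lower, and 14.1% had no overlap. WRKY18 and WRKY11 did not overlap. WRKY11, at an unadjusted p of 0.021, was the only member under 0.05. Log2 fold changes ran from -0.41 (SE 0.27) for WRKY22 to 1.06 (SE 0.58) for WRKY60, a spread that leaves room for differences of that size. In the full-length substituted line WRKY18 alone was called, with 58.9, 85.7, 91.0 and 39.4 CPM against 32.2, 53.7, 35.4 and 32.9 CPM in Col-0, where 5.36% of all genes were called, 3.18% higher and 2.18% lower. The groups overlapped, and the log2 change of 0.86 (SE 0.25, edgeR adjusted p 0.0353) lost its call without Col-0 replicate 1 (0.127), 3 (0.101) or 4 (0.117), or without line replicate 2 (0.128) or 3 (0.1), or with only these genotypes fitted (edgeR adjusted p 0.0759).

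In the truncated active line 7 members were higher than in Col-0, with WRKY18 lower and WRKY6 not called. Of all genes tested, 29.2% were called, 16.8% higher and 12.4% lower, and 27.7% had no overlap, as did 7 of the 9. Log2 fold changes were 3.41 for WRKY46, 1.96 for WRKY60, 1.84 for WRKY11, 1.54 for WRKY33, 1.52 for WRKY40, 1.17 for WRKY53 and 0.82 for WRKY22. WRKY22 was lost without Col-0 replicate 1 (0.0624) or 2 (0.0637) or line replicate 3 (0.0731) or with only these genotypes (edgeR adjusted p 0.0533), and WRKY60 without Col-0 replicate 1 (edgeR adjusted p 0.0504). WRKY6 was called lower without line replicate 4 (-0.80, edgeR adjusted p 0.0349). WRKY18 had 18.5, 13.6, 18.4 and 26.5 CPM in the line, below every Col-0 library, with a log2 change of -1.01 (SE 0.26, edgeR adjusted p 0.00382). It was thus higher in dxo1-2 and lower in the truncated active line, each set against the same Col-0 libraries.

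In the truncated substituted line 6 members were higher than in Col-0 and 0 lower, at edgeR adjusted p of 2.5e-04 or less, where 28.3% of all genes were called, 17.6% higher and 10.7% lower, and 30.4% had no overlap, as did 6 of the 9. They were WRKY46 (2.90), WRKY40 (2.76), WRKY11 (2.40), WRKY53 (1.95), WRKY22 (1.93) and WRKY33 (1.81), given as log2 fold changes. DESeq2 gave the same counts, and leaving out any library of the comparison left 6. WRKY40 averaged 112 ± 14.5 CPM in this line and 16.5 ± 1.96 CPM in Col-0 (SD, n = 4), and WRKY18 averaged 42.8 ± 11.7 CPM in the line and 38.5 ± 10.2 CPM in Col-0, with a log2 change of 0.15 (SE 0.25, edgeR adjusted p 0.701).

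In both pairs of lines the truncated protein came with higher counts of 6 members, in each pair WRKY33, WRKY40, WRKY53, WRKY46, WRKY22 and WRKY11. Between the truncated and full-length active lines 29.9% of all genes were called, 17.4% higher and 12.5% lower, and 29.8% had no overlap, as did 6 of the 9. WRKY6 was the member called lower there. Between the truncated and full-length substituted lines the shares were 30.2%, 17.6% and 12.6%, and 24.9% had no overlap, as did 5 of the 9. There WRKY18 was the member called lower. These comparisons share no library, and both carry the lower DXO1 read level of the truncated lines. WRKY46 had log2 fold changes of 2.89 in the active pair and 3.26 in the substituted pair (edgeR adjusted p 1.7e-07 and 6.0e-07), and WRKY40 had 0.90 and 3.67 (edgeR adjusted p 0.0211 and 7.0e-09). In the active pair the WRKY40 call was lost without full-length replicate 1 (0.0862) or 3 (0.0831) or truncated replicate 3 (0.0548) or 4 (edgeR adjusted p 0.0562). The WRKY53 call there (0.74, edgeR adjusted p 0.0209) was lost without full-length replicate 1 (0.0855) or truncated replicate 3 (0.0593), and dropped to 0.42 without truncated replicate 4 (edgeR adjusted p 0.15), and with only these genotypes fitted it was also lost (edgeR adjusted p 0.0633). WRKY18 in the substituted pair (-0.71, edgeR adjusted p 0.0245) was lost without full-length replicate 2 (0.0945) or 3 (0.0991) or truncated replicate 1 (0.0844) or 2 (0.0927), or with only these genotypes (edgeR adjusted p 0.0656). In the active pair WRKY18 was called lower without truncated replicate 4 (-0.80, edgeR adjusted p 0.0249), with the covariate (0.0155) or with only these genotypes (edgeR adjusted p 0.0348), and in the substituted pair WRKY60 was called higher without full-length replicate 4 (2.15, edgeR adjusted p 0.0266) or truncated replicate 2 (1.89, edgeR adjusted p 0.0309).

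With the catalytic substitutions WRKY40 was higher in the truncated form and lower in the full-length form, while WRKY18 was higher in both. In the truncated form WRKY40 had 120.0, 115, 122 and 90.5 CPM in the substituted line, against 33.9, 42.7, 52.5 and 61.4 CPM in the active line. No library overlapped, and the log2 fold change was 1.24 (SE 0.28, edgeR adjusted p 0.0186). In the full-length form it had 2.56, 15.2, 10.9 and 3.66 CPM in the substituted line, against 15.9, 41.8, 17.4 and 25.6 CPM in the active line. Here the substituted line was the lower one, with a log2 change of -1.53 (SE 0.35, edgeR adjusted p 0.00847). The difference between these effects, tested as an interaction, was 2.77 (SE 0.45, edgeR adjusted p 0.00132). The single-form calls were less firm than the interaction. The truncated one was lost without truncated active replicate 1 (0.102) or 2 (0.0636) or truncated substituted replicate 3 (0.0637), and the full-length one without full-length active replicate 2 (-1.16, edgeR adjusted p 0.0639). Both were lost when only the genotypes compared were fitted (edgeR adjusted p 0.0672 truncated and 0.0583 full-length).

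WRKY53 was the other member whose interaction was called. It had 231, 191, 172 and 181 CPM in the truncated substituted line, against 64.8, 74.1, 129 and 186 CPM in the truncated active line, whose replicate 4 reached the other group. In the full-length form it had 47.8, 39.4, 40.9 and 28.4 CPM in the substituted line and 48.8, 76.8, 66.5 and 78.6 CPM in the active line. Neither step was called (0.78 and -0.79, edgeR adjusted p 0.0858 and 0.0628), while the interaction of 1.56 was (SE 0.35, edgeR adjusted p 0.0165). The truncated step was called without truncated active replicate 4 (1.1, edgeR adjusted p 0.00348), and the full-length step without full-length active replicate 1 (0.0492) or full-length substituted replicate 3 (edgeR adjusted p 0.0453). The full-length step was called with the length trend removed (0.03), with the covariate (0.00686) and with only these genotypes (edgeR adjusted p 0.0406), and the truncated step with the covariate (edgeR adjusted p 5.3e-04). These 2 were the only members called in the interaction, where 1.44% of all genes were called, 0.839% higher and 0.603% lower. No member was called lower or had an unadjusted p under 0.05 in that direction. Leaving out any library kept 2 members called, and a fit of only the 4 lines kept 1, with WRKY53 at an edgeR adjusted p of 0.0505.

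WRKY18 was higher in the substituted lines in both forms. It had 33.9, 31.5, 52.9 and 53.1 CPM in the truncated substituted line, against 18.5, 13.6, 18.4 and 26.5 CPM in the truncated active line, a log2 change of 1.16 (SE 0.25, edgeR adjusted p 0.0143). In the full-length form it had 58.9, 85.7, 91.0 and 39.4 CPM in the substituted line, against 28.0, 30.4, 27.6 and 31.5 CPM in the active line, a log2 change of 1.24 (SE 0.24, edgeR adjusted p 0.00207). The groups did not overlap in either form, and the interaction was -0.08 (SE 0.35, edgeR adjusted p 0.967). The truncated call was lost without truncated active replicate 1 (0.0509) or 2 (0.07) or truncated substituted replicate 3 (0.0603) or 4 (edgeR adjusted p 0.0536). WRKY22 rose in the truncated form, with 31.7, 38.7, 45.0 and 33.7 CPM in the substituted line and 14, 12.9, 22.4 and 19.9 CPM in the active line (1.11, SE 0.23, edgeR adjusted p 0.00966). In a fit of only the truncated lines neither WRKY18 nor WRKY22 was called (edgeR adjusted p 0.117 and 0.103). For WRKY22 the full-length step of 0.65 was not called (edgeR adjusted p 0.146). In the truncated pair 2.11% of all genes were called, 1.45% higher and 0.662% lower, against 3 and 0 members, and 7.29% had no overlap, as did 4 of the 9, with 0 members lower by DESeq2 or at an unadjusted p under 0.05. In the full-length pair 6.28% were called, 3.79% higher and 2.49% lower, against 1 member each way, and 12.7% had no overlap, as did 4 of the 9. The number of members called there was 1 without full-length active replicate 2 and 4 without full-length substituted replicate 3, where WRKY33 was also called lower (-1.40, edgeR adjusted p 0.0179).

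**Figure D3:**
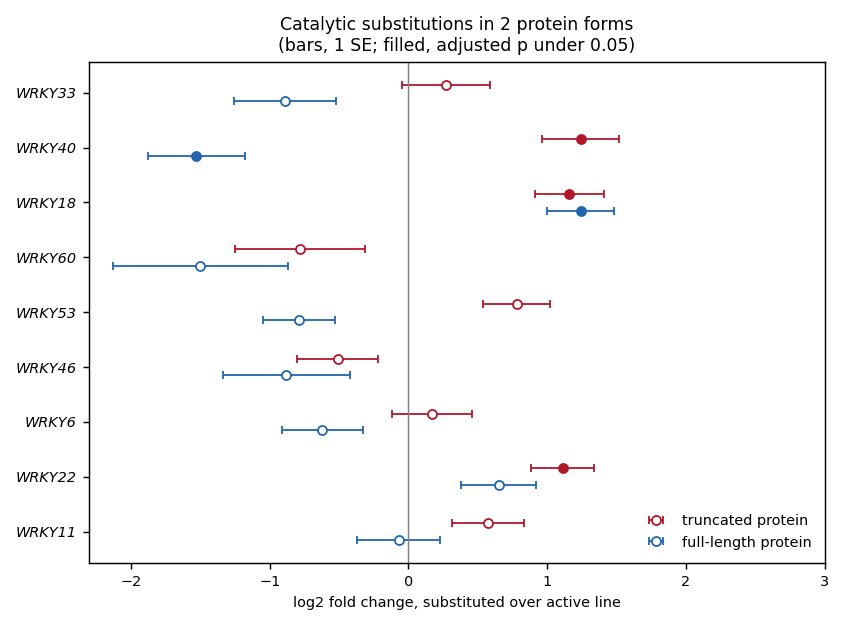
Log2 fold change of the substituted over the active line (horizontal axis) for each WRKY gene, in the truncated and in the full-length protein, with bars of 1 SE and filled points for an edgeR adjusted p under 0.05. WRKY40 lies at 1.24 in the truncated form and -1.53 in the full-length form, whereas WRKY18 lies at 1.16 and 1.24.

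Because WRKY40 and WRKY18 parted in several lines, the ratio of their counts was taken within each library, where depth and scaling cancel. This ratio was chosen after the values were seen. It was 3.53, 3.65, 2.31 and 1.71 in the truncated substituted line and 1.84, 3.15, 2.86 and 2.32 with the truncated active protein. The full-length substituted line had 0.0435, 0.178, 0.119 and 0.093, and the full-length active one 0.565, 1.38, 0.63 and 0.813. It was 1.1, 0.788, 0.719 and 0.542 in dxo1-2 and 0.50, 0.31, 0.538 and 0.436 in Col-0. WRKY40 counts thus exceeded WRKY18 counts in all 8 libraries of the truncated lines and were far fewer in the full-length substituted line. In that last line the ratio rests on 3, 24, 26 and 4 WRKY40 counts. The full-length active line and dxo1-2 covered the same range, although each gene alone was lower in the line.

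Exact permutation tests were run on this ratio and on the one that follows, but their p-values are not used here. As the pair was picked for its values, the ratio is given as a description only. It had no overlap in 11 of 13 pairs of genotypes. The exceptions were the full-length active line against dxo1-2, with a log2 difference of 0.06, and the truncated substituted against the truncated active line, with 0.11. The largest of the 13 differences, 4.69, was between the truncated and full-length substituted lines, and that between the full-length substituted and active lines was -2.95.

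For the group III genes the ratio of WRKY46 to WRKY53 counts had another pattern. It was 0.19, 0.128, 0.241 and 0.20 in the truncated substituted line, 0.685, 0.621, 0.361 and 0.382 in the truncated active line and 0.42, 0.489, 0.454 and 0.396 in dxo1-2. It ran from 0 to 0.323 with full-length substituted DXO1, from 0.0742 to 0.167 with full-length active DXO1 and from 0.0667 to 0.164 in Col-0. The truncated active line and dxo1-2 shared a range, with a log2 difference of 0.16, whereas the truncated substituted line lay below dxo1-2 by a log2 difference of -1.24 and below the truncated active line by one of -1.41, without overlap in either case. Against Col-0 the truncated substituted line overlapped, with a log2 difference of 0.92. These values too are a description.

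**Figure D4:**
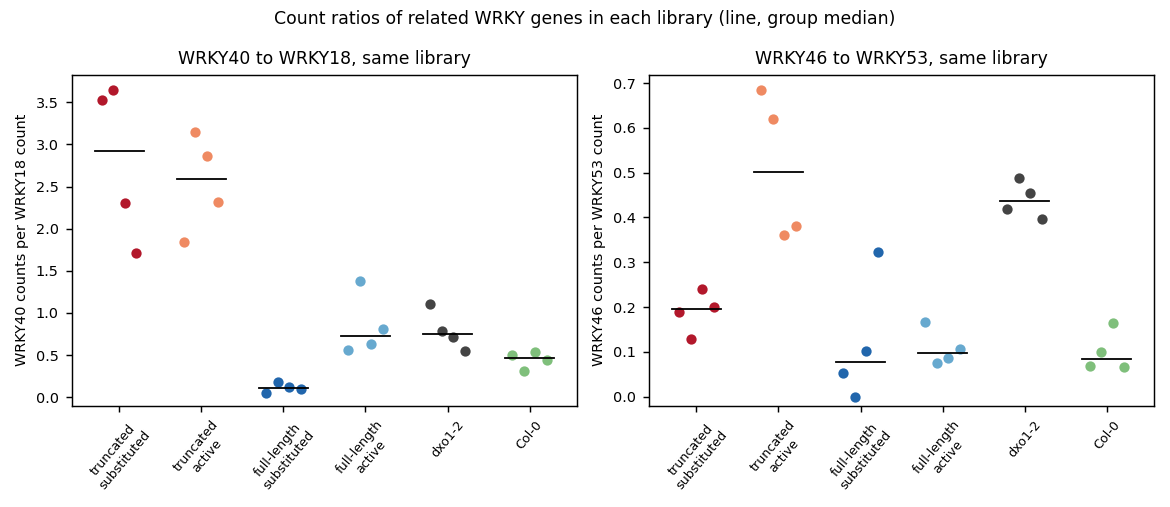
Counts of WRKY40 per count of WRKY18 (left) and of WRKY46 per count of WRKY53 (right) in every library, by genotype, on linear vertical axes. Points are libraries and the line is the median. The WRKY40 to WRKY18 ratio lies at 1.71 or more in the truncated lines and at 0.178 or less in the full-length substituted line.

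Ordered by mean level, the 9 genes fell into a few shapes over the 6 genotypes. WRKY33, WRKY53 and WRKY11 had the truncated substituted line at the top, then the truncated active line, then dxo1-2 and the full-length active line. For WRKY33 every neighbour in that order overlapped. For WRKY53 dxo1-2 lay clear of the full-length active line, and for WRKY11 the truncated active line lay clear of dxo1-2 and dxo1-2 of the full-length active line. WRKY40 also had the truncated substituted line on top, clear of dxo1-2, which was followed by the truncated active line. WRKY22 had the same order at the top, also with a clear first step.

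WRKY46 and WRKY60 had the truncated active line at the top, followed by dxo1-2, and these neighbours overlapped. The only step without overlap in the order of WRKY46 was between the truncated substituted and the full-length active line, and WRKY60 had none. WRKY18 alone was highest in the full-length substituted line and lowest in the truncated active line, with overlap between neighbours in its order for the full-length substituted line and dxo1-2 and for the truncated substituted line and Col-0. WRKY6 alone was highest in the full-length active line. The mean of the highest genotype over that of the lowest was 13.8 for WRKY40, 13.1 for WRKY46, 5.32 for WRKY60, 5.29 for WRKY11, 5.13 for WRKY22, 5.02 for WRKY33, 4.95 for WRKY53, 3.58 for WRKY18 and 1.90 for WRKY6.

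For each member the gene with the most similar pattern was found by the root-mean-square difference of the 6 centred genotype means of log2 CPM, over genes that averaged 20 counts or more. The closest was HSPRO2 for WRKY11, at 0.08, with means of 154, 113, 49.7, 53.0, 76.2 and 36.0 CPM from the truncated substituted line to Col-0 in the order of the opening. NUDT7, a nucleotide hydrolase gene, was closest to WRKY6 (0.09), the lipase-like defence regulator gene PAD4 to WRKY60 (0.11) and the locus AT4G02410 to WRKY33 (0.11). The zinc finger gene ZF2 followed WRKY53 (0.15), RALFL34, a gene for a small secreted peptide, followed WRKY22 (0.15), and CBF1, a factor of the cold response, followed WRKY40 (0.18). WRKY18 and WRKY46 had the largest distances, to GRP3S at 0.21 and AT2G46535 at 0.26. The distances are not scaled to the spread of the member itself, so a flat gene tends to a small one. That root-mean-square spread was 0.337 for WRKY6, 0.622 for WRKY18 and 1.57 for WRKY46. The measure rests on 6 points and describes these libraries only.

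Beyond the 9, the WRKY family was covered by 63 further genes, of which 26 passed the filter on low counts. In dxo1-2, 10 of the 26 were higher than in Col-0 and 0 lower, where 14.7% of all genes tested were called higher and 7.93% lower. DESeq2 called 9 and 0, and at an unadjusted p under 0.05 the counts were also 10 and 0. The median log2 fold change of the 26 was 0.35, against 0.02 for all genes. WRKY54 and WRKY70, close relatives that act in salicylic acid signalling, had 139 ± 11.9 and 210.0 ± 39.8 CPM in dxo1-2, against 19.4 ± 4.2 and 63.0 ± 2.61 CPM in Col-0 (SD, n = 4). Their log2 fold changes were 2.83 and 1.74 (edgeR adjusted p 1.1e-11 and 7.5e-07). WRKY51 had 28.7 ± 10.7 CPM in dxo1-2 and 2.59 ± 1.11 CPM in Col-0 (3.49, edgeR adjusted p 9.3e-06). WRKY38, at 12.2 ± 4.00 CPM in dxo1-2 against 0.509 ± 0.345 CPM in Col-0, and WRKY50, at 7.12 ± 2.75 CPM in dxo1-2 against 0.863 ± 0.376 CPM in Col-0, had log2 fold changes of 4.55 and 2.91 from low Col-0 levels (edgeR adjusted p 1.6e-05 and 9.9e-05).

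With full-length active DXO1 6 of the 26 were lower than in dxo1-2 and 1, WRKY4, was higher (0.64, edgeR adjusted p 0.0424), where 18.5% of all genes were called lower and 12.1% higher, so the share of lower calls was close to that of all genes. The WRKY4 call held only in the fits without dxo1-2 replicate 1 or line replicate 1, with an edgeR adjusted p of 0.0689 to 0.137 in the other 6, and it was lost with no filter (0.113) and with the length trend removed (0.27, edgeR adjusted p 0.389). With full-length substituted DXO1 7 were lower and 0 higher, against 15.1% and 10.4% of all genes, with 2 higher by DESeq2 and 2 at an unadjusted p under 0.05. WRKY54, WRKY51 and WRKY38 were among the lower ones in both. WRKY70 averaged 92.6 ± 29.0 CPM with full-length substituted DXO1 and 210.0 ± 39.8 CPM in dxo1-2 (SD, n = 4), and its log2 change was -1.17 (edgeR adjusted p 1.1e-04). WRKY48 was at 0.597 ± 0.415 CPM in that line against 4.93 ± 1.19 CPM in dxo1-2 (-2.88, edgeR adjusted p 0.00371). In the truncated active line 2 were lower, WRKY25 and WRKY15 (-0.65 and -0.93, edgeR adjusted p 0.0373 and 0.0487), and in the truncated substituted line 1, WRKY25 (-0.73, edgeR adjusted p 0.039), with 0 higher in either by edgeR or DESeq2 and 1 each at an unadjusted p under 0.05. Of all genes 2.32% were called lower in the truncated active and 0.471% in the truncated substituted line. Left without 1 library, the truncated active calls held only without dxo1-2 replicate 1 or line replicate 4, with edgeR adjusted p of 0.0831 to 0.131 for WRKY25 and 0.0857 to 0.197 for WRKY15 in the other 6 fits. The truncated substituted call held only without line replicate 4, with 0.0546 to 0.208 in the other 7. Both WRKY25 calls were lost with no filter (0.0897 truncated active, 0.0589 truncated substituted) and with only the genotypes compared (0.123 and 0.0679), as was WRKY15 with only those genotypes (0.11) and with median-of-ratios factors (edgeR adjusted p 0.053).

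**Figure D5:**
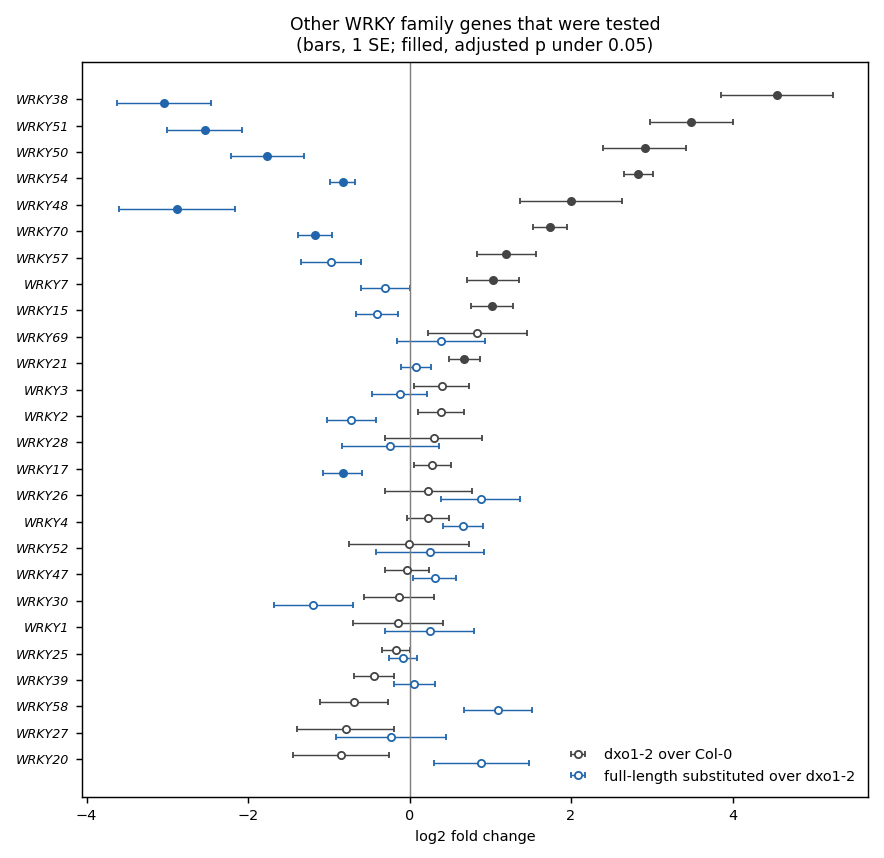
Log2 fold change (horizontal axis) of the 26 other WRKY genes tested, for dxo1-2 over Col-0 and for the full-length substituted line over dxo1-2, with bars of 1 SE and filled points for an edgeR adjusted p under 0.05. Both comparisons use the same dxo1-2 libraries, so opposite signs are partly built in. WRKY54 lies at 2.83 in the first and -0.83 in the second.

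Kinases and partner proteins of WRKY factors formed a further list. Of 14 genes for mitogen-activated protein kinase cascades and VQ partner proteins, all tested, 8 were higher in dxo1-2 than in Col-0 and 0 lower, against 14.7% and 7.93% of all genes, with 1 lower at an unadjusted p under 0.05 and 0 in DESeq2. Their median log2 fold change was 0.78, and that of all genes 0.02. SIB1, a VQ protein that binds WRKY33, had 88.8, 119, 121 and 165 CPM in dxo1-2, against 26.0, 28.7, 21.8 and 23.9 CPM in Col-0 (2.29, edgeR adjusted p 2.4e-07). MPK3, a kinase of WRKY33, had 205 ± 30.4 CPM in dxo1-2 and 77.4 ± 9.65 CPM in Col-0 (SD, n = 4), and MPK11, a relative of MPK4, 29.2 ± 7.03 CPM in dxo1-2 and 8.76 ± 2.39 CPM in Col-0, with log2 changes of 1.40 and 1.72 (edgeR adjusted p 1.3e-04 and 1.5e-04). In the full-length active line 8 of the 14 were lower than in dxo1-2, among them SIB1, MEKK1 and MPK11, and 2 were higher, MKK1 and MKK2, where 18.5% of all genes were lower and 12.1% higher. In the full-length substituted line 6 were lower, among them MPK11, MPK3 and SIB2, and 1, MKK1, was higher, where the shares of all genes were 15.1% and 10.4%. With truncated active DXO1 1 was lower, MEKK1, against 2.32% of all genes, and in the truncated substituted line 0 changed by edgeR or DESeq2, with 1 lower at an unadjusted p under 0.05. The MKK2 call (0.58, edgeR adjusted p 0.0374) held only without dxo1-2 replicate 1 or line replicate 1, with 0.0604 to 0.111 in the other 6 fits that left out 1 library and 0.0621 with no filter. The MEKK1 call of the truncated active line (-0.79, edgeR adjusted p 0.0195) was lost without dxo1-2 replicate 2 or 4 or line replicate 1, 2 or 3 (0.0528 to 0.0889), with no filter (0.0978) or with only these genotypes (edgeR adjusted p 0.0934). The MKK1 call of the full-length substituted line (0.63, edgeR adjusted p 0.0184) was lost without dxo1-2 replicate 4 (0.0656) or line replicate 1 (0.0708), with no filter (0.0526) or with only these genotypes (edgeR adjusted p 0.0551).

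Genes known as WRKY33 targets were examined next. The list held 9 genes named as WRKY33 targets or for camalexin synthesis, among them NCED3, NCED5 and CYP82C2. It does not separate targets that WRKY33 activates from those it represses. Of the 9, 5 were tested, and 3 of them were higher in dxo1-2 than in Col-0. By edgeR, by DESeq2 and at an unadjusted p under 0.05, 0 were lower. Of all genes 14.7% were called higher and 7.93% lower. ACS6, an enzyme of ethylene synthesis, had 48.1 ± 8.03 CPM in dxo1-2 and 13.1 ± 3.99 CPM in Col-0 (SD, n = 4; log2 change 1.89, edgeR adjusted p 1.7e-06). PAD3, the last enzyme of camalexin synthesis, had 24, 18.0, 4.6 and 1.69 CPM in dxo1-2, against 0.946, 3.78, 4.77 and 1.19 CPM in Col-0. The dxo1-2 libraries differed widely among themselves and overlapped Col-0. CYP71A13, an earlier enzyme of that path, had 25.7, 12.7, 4.14 and 2.54 CPM in dxo1-2, against 0.946, 1.51, 1.36 and 2.99 CPM in Col-0. Both were called (2.30 and 2.78, edgeR adjusted p 0.0228 and 0.0122) and both calls were lost without dxo1-2 replicate 1 (1.66 and 1.89, edgeR adjusted p 0.128 and 0.105). PAD3 was also lost without dxo1-2 replicate 2 (0.0634), Col-0 replicate 1 (0.0884) or Col-0 replicate 4 (edgeR adjusted p 0.0719).

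In the truncated substituted line WRKY33 averaged 88.5 ± 31.3 CPM against 46.7 ± 28.9 CPM in dxo1-2 (SD, n = 4). That difference was not called (log2 change 0.89, edgeR adjusted p 0.362). In the same line PAD3 had 0.88, 1.19, 1.48 and 2.50 CPM and CYP71A13 had 1.76, 1.49, 0.494 and 0.624 CPM. Both were called lower than in dxo1-2 (-3.09 and -3.29, edgeR adjusted p 0.0448 and 0.0428), at 1 to 5 counts per library, where 0.471% of all genes were called lower. With 1 library left out, both calls held only without dxo1-2 replicate 3 or 4, and the other 6 fits gave edgeR adjusted p of 0.0533 to 0.249 for PAD3 and 0.0945 to 0.301 for CYP71A13. The other 3 of the 5 genes tested were not called. By edgeR and DESeq2 0 were higher, with 1 at an unadjusted p under 0.05, and the median log2 fold change of the 5 was 0.06. ACS6 averaged 59.3 ± 14.6 CPM in the line and 48.1 ± 8.03 CPM in dxo1-2. NCED3 averaged 24.1 ± 4.02 CPM in the line and 13.7 ± 3.13 CPM in dxo1-2. SAG13 was lower there too, at 2.63 ± 1.44 CPM against 37.5 ± 31.2 CPM in dxo1-2 (edgeR adjusted p 0.0139), a call lost without dxo1-2 replicate 2 or line replicate 1, 2 or 3 (0.0525 to 0.0767). PAD3 and CYP71A13 were uneven in the truncated active line, at 3.99, 3.64, 4.77 and 16.3 CPM and at 1.50, 1.98, 4.77 and 27.1 CPM. Replicate 4 was the high one in both, and it also had 118 CPM of SAG13 against 6.48 to 17.6 CPM in the other 3. That library held the highest value of 6 of the 9 WRKY genes in its line. It held the lowest value of 2, WRKY33 and WRKY11. None of the 5 targets was called in that line over dxo1-2, with 0 at an unadjusted p under 0.05 and 0 in DESeq2.

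ACS6, PAD3 and CYP71A13 were lower than in dxo1-2 in both full-length lines, where 18.5% (active) and 15.1% (substituted) of all genes were called lower, and 0 of the 5 were higher by edgeR, by DESeq2 or at an unadjusted p under 0.05. ACS6 averaged 3.72 ± 1.35 CPM with full-length substituted and 11.9 ± 1.64 CPM with full-length active DXO1, against 48.1 ± 8.03 CPM in dxo1-2 (SD, n = 4), with log2 changes of -3.70 and -2.01 (edgeR adjusted p 1.4e-09 and 2.3e-07). For PAD3 the call of the substituted line was lost without dxo1-2 replicate 1 (-2.16, edgeR adjusted p 0.0568). Of 12 genes listed as targets of the other members only 4 were tested. The salicylic acid regulator CBP60G was the one higher in dxo1-2, with 13.7 ± 4.10 CPM against 6.02 ± 2.21 CPM in Col-0 (1.22, edgeR adjusted p 0.0277). In that comparison 14.7% of all genes were called higher and 7.93% lower. The CBP60G call was lost without dxo1-2 replicate 1 or Col-0 replicate 1, 3 or 4 (edgeR adjusted p 0.0611 to 0.113). In the full-length active line SARD1 and EDS1, also of salicylic acid signalling, were higher than in dxo1-2 (0.78 and 1.05, edgeR adjusted p 0.011 and 0.0235), and 0 were lower by edgeR, by DESeq2 or at an unadjusted p under 0.05. Of all genes 12.1% were called higher and 18.5% lower there. The SARD1 call was lost without line replicate 4 (0.0739) and with the length trend removed (0.45, edgeR adjusted p 0.131), and the EDS1 call without dxo1-2 replicate 2, 3 or 4 or line replicate 1 or 4 (0.0516 to 0.0884). CBP60G was lower in the full-length substituted line (-1.31, edgeR adjusted p 0.018), a call lost without dxo1-2 replicate 1 or line replicate 2 or 4 (0.0523 to 0.0783) or with only these genotypes (edgeR adjusted p 0.112). In the truncated lines 0 of these 4 were called by edgeR or DESeq2, with 0 in the active and 1, lower, in the substituted line at an unadjusted p under 0.05.

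Other genes known to respond within minutes to touch, cold or elicitors were compared as company for the WRKY genes. Of 23 listed, 20 were tested, and 12 were higher in dxo1-2 than in Col-0 by edgeR and by DESeq2 and 15 at an unadjusted p under 0.05, with 0 lower by any of these and a median log2 fold change of 0.92. Of all genes 14.7% were called higher and 7.93% lower, with a median of 0.02. The ethylene response factor ERF4 had 254 ± 60.4 CPM in dxo1-2 and 44.9 ± 2.57 CPM in Col-0 (2.50, edgeR adjusted p 3.0e-07), the zinc finger gene SZF1 133 ± 47.3 CPM in dxo1-2 and 35.3 ± 9.49 CPM in Col-0 (1.94, edgeR adjusted p 9.1e-06), and ERF6 48.4 ± 6.79 CPM in dxo1-2 and 13.7 ± 4.24 CPM in Col-0 (SD, n = 4; 1.82, edgeR adjusted p 8.2e-06). In each full-length line 13 of the 20 were lower than in dxo1-2, against 18.5% of all genes in the active and 15.1% in the substituted line, and 0 were higher by edgeR, by DESeq2 or at an unadjusted p under 0.05. With truncated active DXO1 2 were lower, PHI-1 and TCH4 (-1.95 and -1.91, edgeR adjusted p 0.00112 and 0.00159), and 0 higher, with 3 higher at an unadjusted p under 0.05 and 0 in DESeq2. Of all genes 2.32% were called lower and 0.706% higher in that line. In the truncated substituted line RRTF1 and ERF5 were higher, at 38.8 ± 10.1 and 43.2 ± 1.93 CPM against 5.60 ± 1.17 and 16.7 ± 6.25 CPM in dxo1-2 (SD, n = 4; edgeR adjusted p 0.00435 and 0.0077), while DESeq2 called 4 of the list higher. The shares of all genes called by edgeR in this line were 0.324% higher and 0.471% lower. PHI-1 was lower there (-1.55, edgeR adjusted p 0.0212), a call lost without dxo1-2 replicate 2 or 4 or line replicate 1, 2 or 3 (0.0618 to 0.125).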

How the data were processed

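Each library has its own table of counts, whole numbers listed by locus, as deposited by the authors. The submitters' processing notes name STAR 2.7.8a, the genome build TAIR10 and DESeq2. The counting tool, its annotation and strand setting, and any collapsing of molecular identifiers, are not given in the sources used here, so spreads and tests cannot separate molecules from copies, and counting limits cover counting error only. RNA was total RNA, reverse transcribed per the labels from barcoded oligo(dT), pooled and tagmented.

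All 24 libraries entered 1 fit with edgeR 4.0.16 in R 4.3.3 (quasi-likelihood test, TMM, filterByExpr by group), from which 14 comparisons were drawn, with Benjamini-Hochberg adjustment over 13592 genes and a threshold of 0.05. Of 37184 loci, 36899 matched the RefSeq annotation of TAIR10.1, all 9 members among them. Total counts had a median of 2112938.5 per library. Among 36 pairs of libraries of 1 genotype 0 were identical, and the lowest chi-square per degree of freedom was 1.75, so no library was a copy of another. This check cannot tell separate plants from technical repeats. Each library was entered as its own replicate. Log2 count ratios used a pseudocount of 0.5.

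The members and all lists were chosen with earlier results of these data known. Genes named from a list are the called ones with the smallest p, at most 3 in each direction per list and comparison, or 5 for the other WRKY genes.

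Alternatives were DESeq2 1.42.0, median-of-ratios size factors, no filter, a filter at a mean of 10 counts, organelle genes left out, a length trend removed by lowess, the main axis of spread within genotypes as a covariate, a fit of just the genotypes compared, the replicate number as a block, and each library left out. A ratio pseudocount of 1, and running these settings for list genes and DXO1, were added after seeing the data. The steps were tested on simulated counts.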

Additional observations from a re-analysis of the deposited data

Results flagged for a closer look

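Among 54 sets of 4 values, 1 for each member and genotype, 4 held a library that stood apart from the others by Dixon's criterion, which chance alone meets in about 1 of 20 sets. WRKY18 had 53.7 CPM in Col-0 replicate 2, against 32.2 to 35.4 CPM in the other 3. WRKY53 had 89.6 CPM in dxo1-2 replicate 4, against 115 to 120.0 CPM in the rest. In truncated active replicate 4, WRKY46 had 71.1 CPM, against 44.4 to 46.6 CPM, and WRKY6 had 25.3 CPM, against 9.48 to 12.1 CPM in the other libraries of that line.

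The effect of the catalytic substitutions differed between the truncated and the full-length protein for WRKY40, by 2.77 on the log2 scale, and for WRKY53, by 1.56 (edgeR adjusted p of the interaction 0.00132 and 0.0165).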

How the results depend on the processing

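The number of the 9 members called moved by over 1.5 times as follows, given first under the alternative. In the truncated active line over dxo1-2 it was 4 against 1 with the main axis of spread within genotypes as a covariate. In the truncated substituted line over dxo1-2 it was 2 by DESeq2, 2 with no filter, 2 with the length trend removed and 6 with the covariate, against 1. In the full-length active line over Col-0 it was 1 with the covariate and 1 in a fit of only the groups compared, against 0, and in the full-length substituted line over Col-0 it was 0 in such a fit, against 1. Between substituted and active lines it was 5 with the covariate in the truncated form and 0 with only those groups, against 3, and 5 with the covariate in the full-length form, against 2. The interaction had 1 with only the 4 lines, against 2. A fit of only the groups compared left the truncated substituted line over dxo1-2 at 1, but the gene was WRKY40 in place of WRKY11, and full-length substituted over active at 2, with WRKY53 in place of WRKY40. The covariate was computed from these libraries and the causes of the other moves were not tested. The fit of only the truncated lines called 8 genes in all, against 287.

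Leaving out 1 library gave 5 to 8 members for dxo1-2 over Col-0. Against dxo1-2 the range was 0 to 2 for the truncated substituted, 1 to 2 for the truncated active, 5 to 7 for the full-length substituted and 4 to 5 for the full-length active line. Against Col-0, in the same order, it was 6 to 6, 6 to 9, 0 to 1 and 0 to 0. It was 1 to 4 for substituted over active in both forms, 6 to 8 and 5 to 7 for truncated over full-length in the substituted and active pairs, and 2 to 2 for the interaction. No direction reversed in any of these.

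Replicate numbers were not used to pair the libraries, since no comparison had all 4 same-numbered pairs correlated above 0.1 (range -0.536 to 0.613). The truncated substituted and active lines had 3 of 4 pairs above 0.1. On the main axis of spread within genotypes, replicate 4 scored 0.345, 0.397, 0.216 and -0.0378 in the lines in the order above. It scored 0.226 in dxo1-2 and 0.128 in Col-0. The labels do not say whether replicate numbers mark a batch, and this was not settled. With the replicate block the members called were 7 for dxo1-2 over Col-0, 1, 1, 6 and 5 for the lines over dxo1-2 in the order above, 6, 8, 1 and 0 over Col-0, 3 and 2 for substituted over active in the truncated and full-length form, 7 and 7 for the truncation and 2 for the interaction, as without it. PAD3 in the truncated substituted line over dxo1-2 had an edgeR adjusted p of 0.0593 with the block.

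The share of calls that were higher, over all genes, moved by over 10 percentage points in 8 comparisons. With the length trend removed it was 48.7% against 64.9% for dxo1-2 over Col-0, 48.5% against 62.1% for the truncated substituted line over Col-0 and 41.2% against 53.6% for the full-length active line over Col-0, where DESeq2 gave 42.0% and no filter 43.5%. With the covariate it was 50.7% against 39.5% for the full-length active and 43.6% against 23.3% for the truncated active line over dxo1-2, and 50.2% against 60.3% for full-length substituted over active. Truncated substituted over active gave 56.8% with no filter and 25.0% with only those groups, against 68.6%, and the interaction 48.0% with median-of-ratios factors and 45.5% with no filter, against 58.2%. Removing the length trend moved the all-gene median by over 0.1 only for the truncated active line over Col-0, with -0.0206 against 0.0841. Depth limits WRKY60, with 0 to 23 counts per library, which had no value with the filter at a mean of 10 counts. It also limits WRKY46 and WRKY40 where they are low, with 3 to 26 WRKY40 counts per library in the full-length substituted line.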

Other observations

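The antisense neighbour of WRKY40, AT1G80850, had log2 changes of -1.78 in the full-length substituted line and -1.48 in the full-length active line over dxo1-2 (edgeR adjusted p 8.4e-05 and 1.6e-04). CBF1, the gene closest to WRKY40 in pattern, averaged 42.1 CPM in the truncated substituted line, 20.6 CPM in the truncated active line, 2.26 CPM with full-length substituted DXO1, 6.68 CPM with full-length active DXO1, 24.2 CPM in dxo1-2 and 6.65 CPM in Col-0. The first principal component of the deviations from genotype means held 41.6% of the variance within genotypes. Replicate 1 of Col-0 was lowest of its group for 6 of the 9 WRKY genes.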
